A study of Mus musculus with 24 samples.

Results

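Pineal glands of mice labelled NeuroD1 cKO, in which Cre is driven by Crx, were compared with control glands at night. The comparison rests on 6 of the 24 arrays of the series: 3 pools labelled NeuroD1 cKO and 3 pools labelled control, all taken at ZT20, that is at night, 20 h after the lights came on, with 12 h of light and 12 h of darkness a day. Each pool held 6 pineal glands of 2-month-old C57BL/6J mice of both sexes, collected under dim red light, and was measured on 1 Affymetrix Mouse 430 2.0 array. Both groups carried 2 floxed Neurod1 alleles. The cKO mice also carried 1 copy of a Crx-Cre transgene, and the controls carried no Cre, so that an effect of Cre itself and an effect of the deletion cannot be told apart. The members are all genes with a probe set, 1 probe set per gene, 18193 in all, of which 11936 passed a filter on dim genes and were tested.

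The pineal gland makes the hormone melatonin at night, when noradrenaline from sympathetic nerves raises cAMP in pinealocytes and switches on the enzyme gene Aanat. Pinealocytes share much of their transcription with retinal photoreceptors, including the homeobox factors Crx and Otx2 and several phototransduction proteins. The product of Neurod1 is a basic helix-loop-helix (bHLH) factor that pairs with E proteins, binds E-box sequences of the form CANNTG and is made in both cell types. Besides pinealocytes, a dissected gland holds blood vessels, connective tissue continuous with the meninges, interstitial glia, macrophages and mast cells.

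Differences below are cKO minus control on the scale of quantile-normalised log2(signal + 16), with the standard error (SE) of a limma fit over the 12 pineal arrays and n = 3 pools per group. Signals given per pool are quantile-normalised intensities, unless said to be as deposited, and always run from pool 1 to pool 3 of a group. "Passed" means an adjusted p under 0.05 over all genes tested, and pools are called separated where all 3 cKO pools lie on one side of all 3 control pools. A p-value rests on the spread between pools within the groups of all 12 pineal arrays, shared over both times, not between single mice. In whole glands, fewer cells of a type and less RNA per cell cannot be told apart.

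The arrays themselves differed between the groups. Array medians as deposited were 107.1, 107.7 and 129.3 units in cKO and 132.3, 156.4 and 145.4 in control pools, without overlap. The log2 ratio of 3' to 5' signal, which is higher where RNA or its copies are shorter, was 1.34 to 1.50 for Actb in cKO against 1.07 to 1.30 in control pools. For Gapdh it was 0.399 to 0.438 against 0.362 to 0.369, again without overlap. The part of these values in the results that follow was not tested. Correlations across probe sets were 0.989 to 0.992 within groups and 0.988 to 0.991 between them.

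Neurod1 itself (chr2:79452637-79456636, GRCm38.p6) showed how far each pool followed its label. As deposited, its brighter probe set read 3156, 4323 and 3387 in the control pools and 22.5, 1897 and 960 in the pools labelled cKO. The cKO pools thus held 0.621, 52.4 and 26.5% of the control mean, and pools 2 and 3 stood far above pool 1. A second probe set gave 1191, 1782 and 1139 in control and 1.2, 577 and 276 in cKO pools, which is 0.0875, 42.1 and 20.1%. By day the 3 pineal cKO pools held 1.68, 0.585 and 0.621% on the brighter probe set. The retinas of the same genotype at ZT20 also had 1 low pool and higher ones, with 5.10, 49.7 and 49.5% of their control mean. Pools 2 and 3 labelled cKO at ZT20 therefore go partly against their label, and results are given with them and, where stated, with pool 1 alone.

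**Figure D1:**
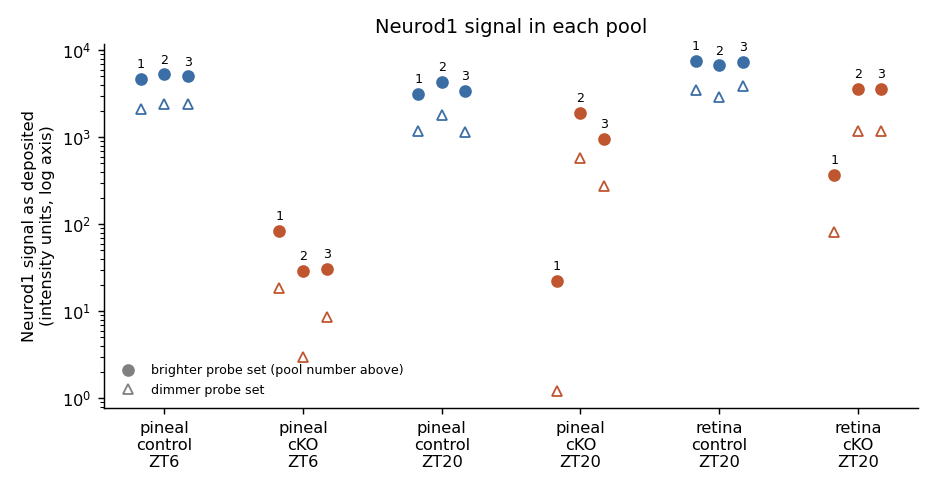
Neurod1 signal as deposited, in intensity units on a log axis, for each pool of the pineal gland at both times and of the retina at ZT20. Filled circles are the brighter and open triangles the dimmer of its probe sets, blue for control and orange for cKO, with pool numbers above the circles. In the pineal cKO group at ZT20, pool 1 reads 22.5 and pools 2 and 3 read 1897 and 960, against 3156 to 4323 in the control pools.

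After normalisation the Neurod1 difference was -3.01 ± 1.20 (95% confidence interval -5.76 to -0.25), and it did not pass by limma (adjusted p = 0.60). All 3 cKO pools lay below all 3 control pools, and an exact two-sided permutation test over the 6 pools gave p = 0.1, the smallest that 3 against 3 allow. Without cKO pools 2 and 3 the difference was -6.28 by limma (adjusted p = 1.24e-05), with the lone pool assumed to vary like the other groups. By day it was -6.30 and passed by limma (adjusted p = 0.044). Its SE by day was also 1.20, since the fit shares a single spread over both times, the uneven cKO pools of ZT20 included. The difference between night and day, 3.29 ± 1.70, did not pass (adjusted p = 0.58). The exon between the loxP sites is not named in the labels. Both probe sets nevertheless showed a loss of signal in all 3 cKO pools by day. The brighter held 1.68, 0.585 and 0.621% of the control mean there, and the dimmer 0.798, 0.130 and 0.373%.

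Across the 11936 genes, none passed by limma's test at night (0%), with a smallest adjusted p of 0.067. At an unadjusted p under 0.05 there were 953 genes (7.98%), 387 higher (3.24%) and 566 lower (4.74%) in cKO. Pools were separated upward in 685 genes (5.74%) and downward in 674 (5.65%). The median difference was 0.02, the middle 90% of genes lay between -0.27 and 0.26, and the median SE was 0.11. Only 6 genes differed by more than 1 log2 unit: Neurod1, Mmp13 and Mgl2 downward and Gad1, Tmprss2 and Wfdc21 upward, of which Mmp13, Mgl2 and Tmprss2 are named only for their values. The count depends on the scaling. On values as deposited, where the median of all genes was -0.15, 137 genes passed (1.15%), all lower in cKO, and 113 of them also had separated pools after quantile normalisation. After centring on array medians, where the median of all genes was 0.15, 2 genes passed, both higher. It also depends on control pool 1: without it 29 genes passed, 28 lower and 1 higher. Without cKO pool 3 only Col1a1 passed.

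**Figure D2:**
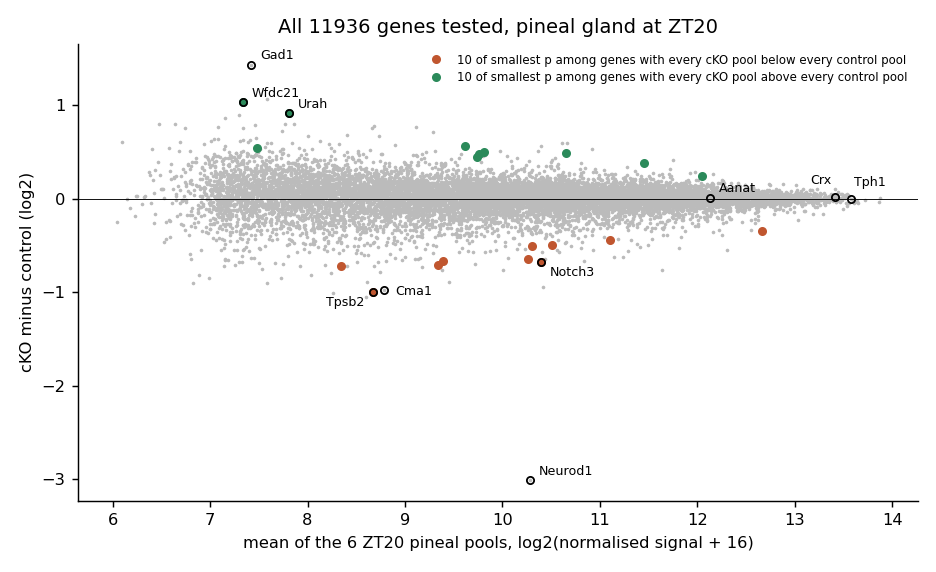
Each point is 1 of the 11936 genes tested, with the mean level of the 6 ZT20 pools on the x axis (log2 of normalised signal + 16) and the difference cKO minus control (log2) on the y axis. Orange and green mark the 10 genes of smallest p in each direction among those with separated pools, and open circles mark genes named in the text. Neurod1 stands alone at -3.01, while Crx, Tph1 and Aanat lie at 0.02, 0.00 and 0.01.

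Of the 16 genes with an adjusted p under 0.1, 15 were lower in cKO. Tpsb2, a tryptase stored in mast cell granules, read 466, 653 and 575 in control against 241, 271 and 312 in cKO pools. Its difference was -0.99 ± 0.15 (adjusted p = 0.067), and every cKO pool was well below the lowest control pool. Bcl6b, a transcriptional repressor, read 756, 930 and 804 against 504, 509 and 539, a difference of -0.66 ± 0.11 (adjusted p = 0.067). Stab1, the scavenger receptor stabilin-1 of macrophages and sinusoidal endothelium, read 1259, 1786 and 1573 against 900.5, 1005 and 1002, a difference of -0.65 ± 0.11 (adjusted p = 0.069). In all 3 genes the groups did not overlap, and the cKO pools lay closer together than the controls.

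Col1a1, the main chain of type I collagen, read 6903, 7323 and 7717 in control against 5445, 5506 and 6339 in cKO pools, a difference of -0.35 ± 0.06 (adjusted p = 0.069). Mrc1, the macrophage mannose receptor, read 2546, 2810 and 2316 against 1884, 1778 and 1963, a difference of -0.44 ± 0.08 (adjusted p = 0.069). Notch3, the Notch receptor of vascular smooth muscle and pericytes, read 1602, 1866 and 1592 against 1099, 1060 and 988, a difference of -0.67 ± 0.13 (adjusted p = 0.075). Their groups were separated as well. The other genes the rule named in this direction were Adamts9, a secreted metalloprotease (-0.51), Itih5, a heavy chain of the inter-alpha-trypsin inhibitor family (-0.50), Cpz, a carboxypeptidase of the matrix (-0.71), and Lgi2, a secreted leucine-rich protein (-0.72). Where a second bright probe set existed, for Col1a1, Itih5 and Notch3, it also lay below 0.

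In the upward direction Shmt1, the cytosolic serine hydroxymethyltransferase of one-carbon metabolism, had the smallest p. It read 1206, 1433 and 1409 in control against 1803, 1935 and 1962 in cKO pools, a difference of 0.49 ± 0.09 (adjusted p = 0.069). All 4 of its probe sets lay between 0.49 and 0.62, and by day the same gene was 0.52 higher and passed (adjusted p = 0.011). Gldc, the glycine decarboxylase of the same branch of metabolism, read 618, 612 and 660 against 1073, 953 and 818, a difference of 0.57 ± 0.14 (adjusted p = 0.21). Urah, a hydrolase of urate breakdown, read 124, 172 and 148 against 298, 252 and 330.4, a difference of 0.92 ± 0.20 (adjusted p = 0.14), and Wfdc21, a small secreted protein with a WAP domain, was at 1.04 ± 0.26 (adjusted p = 0.21). The remaining named genes were Ccnj, a cyclin (0.45), Cox16, an assembly factor of cytochrome c oxidase (0.51), Cers4, a ceramide synthase (0.48), Kcnma1, the pore subunit of a calcium-activated potassium channel (0.25), Rsl24d1, a factor of ribosome assembly (0.38), and Hyls1, a centriole protein (0.55). Kcnma1 was not uniform across its 5 probe sets, of which 2 lay below 0.

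Genes of the pinealocyte gave no call. Crx, the homeobox factor whose promoter drove Cre, read 11099, 10183 and 11237 in control against 10681, 11158 and 11147 in cKO pools, and its difference was 0.02 ± 0.04 (95% confidence interval -0.07 to 0.11). Its partner Otx2 was at 0.05 ± 0.05. Tph1, which hydroxylates tryptophan on the way to melatonin, was at 0.00 ± 0.04, with pools between 11689 and 12448 in all 6, and Aanat, its night-time N-acetyltransferase, was at 0.01 ± 0.20 (95% confidence interval -0.42 to 0.44). Aanat read 4931, 3373 and 5274 in control and 4226, 4450 and 4778 in cKO pools, so its groups overlapped and the wide interval came with a spread among the control pools. The defining transcripts of the labelled tissue were thus present in all 6 pools. Of 10 tested genes of melatonin synthesis and its cofactors, none had separated pools, and the differences ran from -0.07 (Gch1) to 0.15 (Pts). Among 9 factors of pinealocyte identity only Lhx9, a LIM homeobox factor, had separated pools (0.29 ± 0.13, adjusted p = 0.61), which is 1 of 9 against 5.74% of all genes. Sag, the arrestin of rods and pinealocytes, was at 0.03 ± 0.05. Of 21 tested phototransduction genes 1, Prph2, had separated pools (0.21), against 5.74% of all genes upward. The medians were 0.02 for melatonin synthesis, 0.10 for identity factors and 0.03 for phototransduction, and with cKO pool 1 alone they were -0.01, 0.00 and 0.01. For the identity factors the mean level relative to the 6 pools was -0.13 in cKO pool 1. It was 0.15 and 0.13 in cKO pools 2 and 3, and 0.05, 0.01 and -0.21 in the control pools. For phototransduction it was -0.06 against 0.12 and 0.05, with 0.08, 0.04 and -0.22 in the controls, so cKO pool 1 lay below the other cKO pools in both lists and within the range of the controls. Rcvrn and Gnat1 varied too widely between pools to be read, with an SE of 1.68 and 1.63. So did Nrl of the identity list, with an SE of 0.84. These genes counted in the list means above, and among the cKO pools each was lowest in pool 1, at 48.7, 189 and 31.3. Means without these genes are not given here, so the order of the cKO pools is not read further.

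Signalling and timing genes likewise gave no call. Among 23 genes of adrenergic receptors and cAMP signalling, Adra1b, the alpha-1B adrenergic receptor (0.44 ± 0.19), and Nr4a1, an orphan nuclear receptor induced by cAMP (0.32), lay above the controls in every pool, and Dio2, the deiodinase that activates thyroid hormone (-0.44), below. That is 2 upward and 1 downward of 23, against 5.74 and 5.65% of all genes. The list median was 0.07, between 0.02 (without control pool 2) and 0.13 (without control pool 1) when single pools were left out, and 0.01 with cKO pool 1 alone. In 23 genes known to be high at night in this gland, or earlier found so in control arrays of this series, 1 of 23 was separated in each direction. Those found in the control arrays were picked partly for high values in the control pools used here, which biases their differences downward. The counts and the median of this list are therefore not set against those of all genes. The median was 0.05, and its sign depended on single pools, from -0.10 without control pool 2 to 0.16 without control pool 3 or cKO pool 3. Of 20 clock genes, only the kinase gene Csnk1d had separated pools (-0.10), against 5.65% of all genes downward. Per1, a light- and cAMP-responsive clock gene, was at 0.18 ± 0.16 and Dbp, a clock output factor, at -0.02 ± 0.11. Neuroendocrine granule genes (13 tested) and synaptic genes (20 tested) had no separated member, with medians of 0.06 and 0.03, and of -0.02 and -0.03 with cKO pool 1 alone. Genes of the respiratory chain, 19 in number, lay within -0.08 and 0.09. After centring on array medians the medians of these lists moved upward by about the shift of all genes, and on values as deposited several of them turned below 0.

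Among bHLH factors related to NeuroD1, those with a signal had values nearer 0. Neurod4, a related bHLH factor with a strong signal in this gland, read 8946, 9947 and 8510 in control against 9065, 8268 and 9411 in cKO pools (-0.03 ± 0.06). Neurod2 was at 0.15, and Atoh7, an atonal-family factor, at 0.37 ± 0.15 with separated pools (adjusted p = 0.52). Neurod6, Neurog1, Neurog2, Neurog3 and Atoh1 did not pass the filter on dim genes. Of 10 E proteins, Id and Hes-type factors, Tcf3 lay above (0.22) and Tcf4 below the controls in every pool (-0.13 ± 0.05). Of all genes, 5.74% were separated upward and 5.65% downward.

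The largest upward difference of all belonged to Gad1 (chr2:70561303-70602014, GRCm38.p6), which encodes an enzyme that makes the transmitter GABA. It read 92.2, 50.5 and 141 in control against 276, 190 and 355 in cKO pools. The lowest cKO pool exceeded the highest control pool, and the difference was 1.44 ± 0.62 (95% confidence interval 0.04 to 2.83, adjusted p = 0.62). Its dimmer probe set, at a mean log2 level of 5.53 against 7.42 for the one used, gave 1.26. By day the difference was 1.76 with overlapping pools (adjusted p = 0.16 by limma). The cKO pool with the least Neurod1, pool 1, lay between the others. Of the 10 tested genes of GABA synthesis, transport and receptors, Gabrr1 (0.48) and Gabrb1 (0.41) were also above the controls in every pool. Both encode receptor subunits. That makes 3 of 10, against 5.74% of all genes. The margin was small for Gabrb1, with 178 in cKO pool 1 against 175 in control pool 2. The list median was 0.15, 0.08 without control pool 3 and 0.10 without cKO pool 2, and 0.37 by day, when Gabrb1 passed (1.22, adjusted p = 0.0050). On values as deposited, where the median of all genes was -0.15, the list median at night was 0.005. Gabrb1 was then at 0.12 and Gad1 at 1.16. Gad2 and the vesicular transporter gene Slc32a1 did not pass the filter on dim genes. The promoter window of Gad1 was chr2:70561879-70562178 (plus strand, RefSeq, GRCm38.p6), 250 bases before to 50 after the start. It lies inside the span of the gene given above, so its start is not the first base of that span. The window is shown because it held 1 match to CANNTG, in capitals, 104 bases before the start.
Gad1: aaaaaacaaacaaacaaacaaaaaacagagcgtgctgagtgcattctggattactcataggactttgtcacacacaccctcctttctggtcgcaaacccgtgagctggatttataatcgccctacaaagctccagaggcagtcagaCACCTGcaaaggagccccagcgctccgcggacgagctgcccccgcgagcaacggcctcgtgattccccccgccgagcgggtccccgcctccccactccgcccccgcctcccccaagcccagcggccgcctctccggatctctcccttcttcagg
A match to CANNTG on either strand stood in 72.3% of 32851 promoter windows of this length, and the forms CAGATG and CAGCTG, which Gad1 did not hold, in 17.2 and 16.3%.

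Mast cells are granulated immune cells that lie beside vessels in the meninges and pineal stroma, and 4 of their protease genes lay below the controls. Of 13 listed genes, 7 were tested, 6 of them lay below 0, and 4 had separated pools, all downward: Tpsb2, Cma1, Mcpt4 and Cpa3, against 5.65% of all genes. The list median was -0.79, against 0.02 for all genes. Cma1, a chymase, read 466, 866 and 538 in control against 224, 302 and 392 in cKO pools (-0.97 ± 0.23, adjusted p = 0.21). Mcpt4, another chymase, read 442, 751 and 417 against 220, 244 and 372 (-0.89 ± 0.22, adjusted p = 0.21). Cpa3, the mast cell carboxypeptidase, read 310, 501 and 355 against 209, 194 and 238 (-0.79 ± 0.20, adjusted p = 0.21). In each gene control pool 2 was the highest, and in Cma1, Mcpt4 and Tpsb2 cKO pool 1 was the lowest.

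The 3 tested mast cell genes that are not protease genes lay nearer 0: the receptor gene Kit was at -0.11, the prostaglandin D synthase gene Hpgds at -0.16 and the factor gene Gata2 at 0.04, each with overlapping pools. Tpsab1, Mcpt2, Fcer1a, Ms4a2 and Hdc did not pass the filter on dim genes. The summed signal of the tested genes was 4612, 5969 and 4763 in control and 3942, 4194 and 4216 in cKO pools. Of these sums Gata2 alone made up 2546, 2768 and 2517 in control and 2715, 2804 and 2550 in cKO pools. With cKO pool 1 alone the list median was -0.81. On values as deposited the same 4 genes passed, against 1.15% of all genes. The list median was then -1.05 and that of all genes -0.15. By day, after quantile normalisation, the list median was -0.93. Of the 7 genes 3 passed by day, against 1.95% of all genes, Tpsb2 (-0.93, adjusted p = 0.011 by limma) among them. No array is shared between the times. The difference between night and day had an unadjusted p under 0.05 by limma in 0 of 7 genes, against 9.5% of all genes.

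The promoter windows of 3 of these genes (RefSeq, GRCm38.p6, minus strand of chr14:55944626-55944925 for Cma1, chr3:20242132-20242431 for Cpa3 and chr14:56062261-56062560 for Mcpt4) are printed because the genes lay together below the controls. Capitals mark matches to CANNTG and to 4 forms of the motif of GATA factors on either strand. These forms were AGATAA as well as AGATAG, and likewise TGATAA as well as TGATAG.
Cma1: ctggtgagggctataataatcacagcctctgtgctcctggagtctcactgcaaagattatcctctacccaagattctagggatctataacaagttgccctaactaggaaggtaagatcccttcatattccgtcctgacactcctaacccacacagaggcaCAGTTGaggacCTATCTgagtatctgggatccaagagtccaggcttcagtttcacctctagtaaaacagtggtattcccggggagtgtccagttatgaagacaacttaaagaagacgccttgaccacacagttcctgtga
Cpa3: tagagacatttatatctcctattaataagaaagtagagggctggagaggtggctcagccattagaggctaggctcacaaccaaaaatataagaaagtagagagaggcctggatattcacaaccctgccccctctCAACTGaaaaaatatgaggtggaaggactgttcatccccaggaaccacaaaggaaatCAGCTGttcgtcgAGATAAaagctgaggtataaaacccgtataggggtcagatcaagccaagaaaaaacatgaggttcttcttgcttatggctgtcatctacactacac
Mcpt4: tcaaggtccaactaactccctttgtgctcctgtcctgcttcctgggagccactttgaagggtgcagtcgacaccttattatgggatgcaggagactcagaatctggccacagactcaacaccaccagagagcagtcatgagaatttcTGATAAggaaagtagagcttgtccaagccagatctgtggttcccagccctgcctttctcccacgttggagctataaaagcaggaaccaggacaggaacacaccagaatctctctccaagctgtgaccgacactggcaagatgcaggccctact
Each window held 1 GATA form, at 79, 46 and 103 bases before the start, and such a form stood in 29.8% of 32851 windows. CANNTG matched once in Cma1, 2 times in Cpa3, of which 1 was CAGCTG, and not in Mcpt4. A match is a description of letters only. The gene Tpsb2 (chr17:25366308-25368096) is named without a window.

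**Figure D3:**
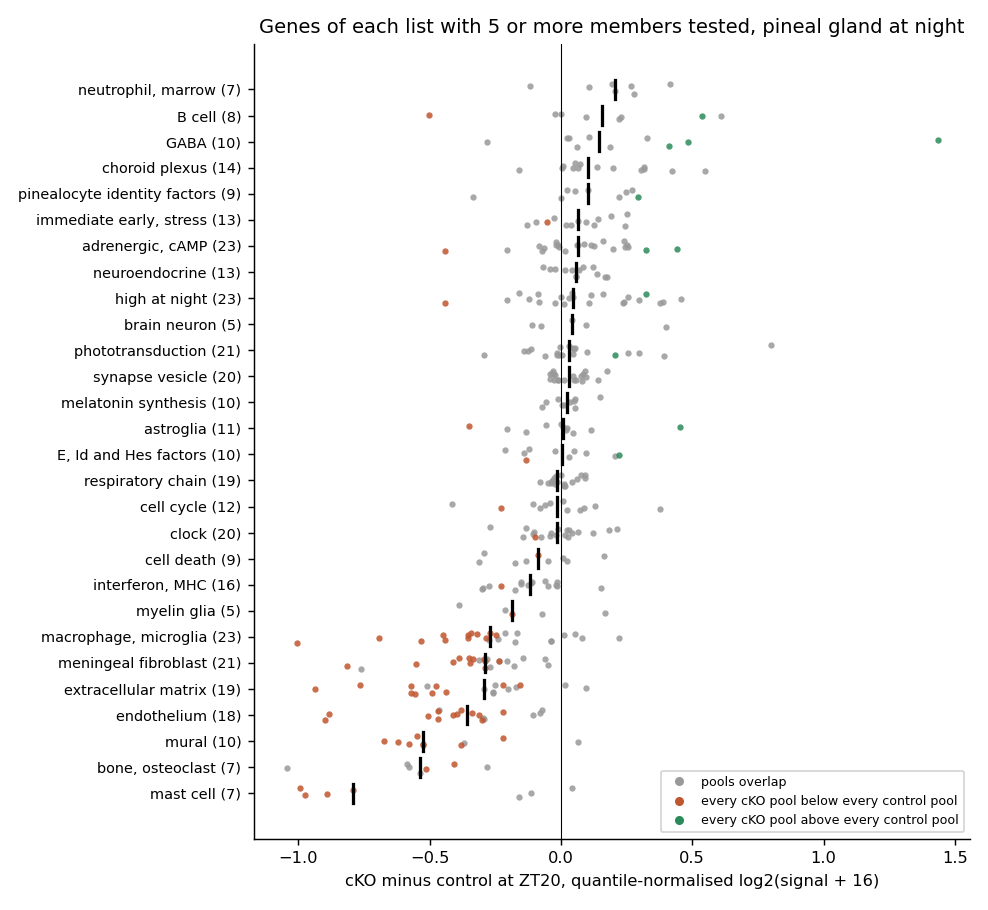
Each point is a tested gene of the list named on the y axis (number tested in brackets), and the x axis gives its difference cKO minus control at ZT20 (log2). Black bars are list medians, and orange and green points are genes whose pools were separated downward and upward. Medians of the mast cell, bone, mural, endothelial, matrix, fibroblast and macrophage lists lie between -0.79 and -0.27, and those of pinealocyte lists between 0.02 and 0.10.

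Genes of blood vessel walls were below the controls at night in most members. Of 10 tested genes of smooth muscle and pericytes, 8 had separated pools, all downward, against 5.65% of all genes, and the median was -0.52. Acta2, the smooth muscle actin, read 4124, 4386 and 4329 in control against 2823, 3174 and 2929 in cKO pools (-0.52 ± 0.12, adjusted p = 0.19). Rgs5, a pericyte regulator of G protein signalling, read 6135, 7228 and 6579 against 6017, 5367 and 5716 (-0.22 ± 0.06, adjusted p = 0.29). Notch3 is described above, and Abcc9, a potassium channel subunit of pericytes, was at -0.58 ± 0.14 (adjusted p = 0.17). The separation was wide for Acta2 and narrow for Rgs5. The exceptions were Kcnj8 (-0.37) and Lmod1 (0.06), whose pools overlapped. On values as deposited 6 of the 10 passed, all lower, against 1.15% of all genes. The list median was then -0.66 and that of all genes -0.15.

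Of 18 tested endothelial genes all lay below 0, 12 had separated pools, against 5.65% of all genes downward, and the median was -0.36. Sema3g, a semaphorin of arterial endothelium, read 204, 303 and 239 in control against 97.98, 146 and 132 in cKO pools (-0.90 ± 0.20, adjusted p = 0.14). Aplnr, the apelin receptor of growing vessels, read 789, 1235 and 840 against 361, 525 and 658 (-0.88 ± 0.21, adjusted p = 0.21). Vwf, von Willebrand factor, read 3880, 4159 and 4586 against 2960, 3553 and 2988 (-0.41 ± 0.12, adjusted p = 0.32). The general endothelial markers Pecam1 (-0.07), Cdh5 (-0.08) and Kdr (-0.11) lay nearer 0, and their pools overlapped. With cKO pool 1 alone the median was -0.42, and leaving out single pools gave -0.46 to -0.31. After centring on array medians, which moved all genes upward by 0.15, it was -0.22.

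Connective tissue and matrix genes had the same sign. Of 21 tested genes of fibroblasts and meninges all lay below 0, 11 with separated pools, against 5.65% of all genes downward, and the median was -0.29. Slc47a1, a transporter of meningeal fibroblasts, read 3822, 3687 and 3755 in control against 2828, 2663 and 3115 in cKO pools (-0.39 ± 0.08, adjusted p = 0.080). Mgp, an inhibitor of calcification, and Ptgds, a prostaglandin D synthase of the meninges, were at -0.06 and -0.05 with overlapping pools. Of 19 tested genes of basement membrane and matrix, 10 had separated pools, all downward, again against 5.65%, with a median of -0.29. Without control pool 2 the matrix median was -0.19, and without cKO pool 2 it was -0.44. Col6a1 read 3016, 3642 and 3566 against 2063, 2426 and 2794 (-0.49 ± 0.10, adjusted p = 0.094), and Col4a2, a chain of the basement membrane collagen, was at -0.57 ± 0.12 (adjusted p = 0.10). Sparc, a collagen-binding glycoprotein, was at -0.16 ± 0.04, and Col8a1 at 0.09 was 1 of the 2 matrix genes above 0. As deposited, where the median of all genes was -0.15, 7 of 21 and 8 of 19 genes passed, all lower, against 1.15% of all genes.

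Of 23 tested genes of macrophages and microglia, 12 had separated pools, all downward, against 5.65% of all genes, and the median was -0.27. Cd163, a scavenger receptor of perivascular macrophages, read 866, 1202 and 1119 in control against 755, 547 and 649 in cKO pools (-0.69 ± 0.14, adjusted p = 0.094). Mgl2, a lectin of the same cells, was at -1.01, and Mrc1 is described above. The microglial genes P2ry12 (0.08) and Cx3cr1 (-0.04), the protease gene Ctss (-0.04) and lysozyme Lyz2 (0.01) overlapped between groups. By day the list median was -0.24, so this list and that of mast cells had similar medians at both times.

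**Figure D4:**
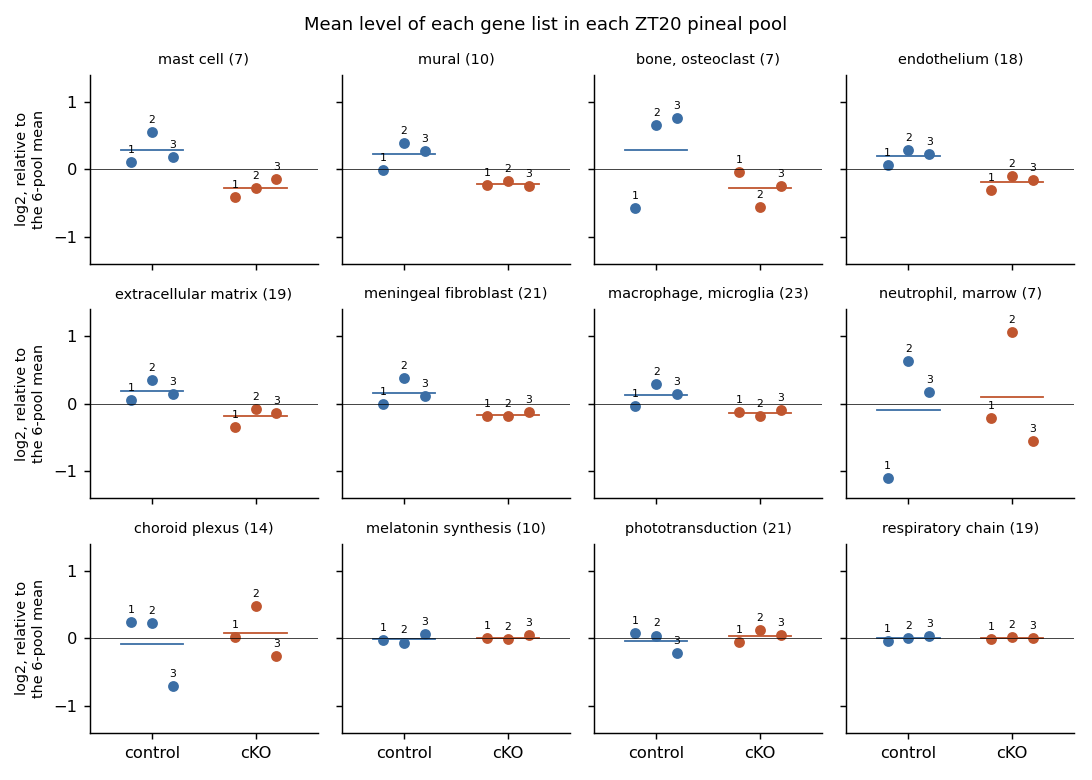
Mean log2 level of the tested genes of 12 lists in each ZT20 pineal pool, relative to the mean of the 6 pools, with pool numbers above the points and group means as lines. Control pools are blue and cKO pools orange. The mast cell, mural, endothelial, matrix, fibroblast and macrophage lists are separated, control pool 1 lying nearest to the cKO pools, while bone, neutrophil and choroid plexus lists overlap and the melatonin and respiratory chain lists stay near 0.

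All of these lists shared one pattern across pools. Control pool 2 had the highest mean level in the mast cell, mural, endothelial, matrix, fibroblast and macrophage lists, at 0.28 to 0.55 above the mean of the 6 pools, and control pool 1 the lowest of the controls, at -0.03 to 0.10. The cKO pools lay between -0.41 and -0.07. With cKO pool 1 alone the medians were -0.81 for the mast cell, -0.54 for the mural, -0.51 for the matrix, -0.34 for the fibroblast and -0.28 for the macrophage list. The lists therefore do not give separate measurements of the groups, and the array medians and 3' to 5' ratios given above were separated in the same pools. The part of tissue makeup, dissection or RNA quality in these values was not tested.

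Genes of tissues next to the gland varied between single pools. Choroid plexus genes, 14 tested, had no separated member and a median of 0.10, with a summed signal of 57271, 58620 and 38710 in control and 51766, 64801 and 46193 in cKO pools. Leaving out single pools moved that median from -0.20 to 0.31. Neutrophil and marrow genes, 7 tested, summed to 2049, 6810 and 5820 against 4268, 9266 and 3142, so that control pool 1 was low and cKO pool 2 high. Bone and osteoclast genes, 7 tested, all lay below 0 with a median of -0.54, but only Sp7 (-0.51) and Alpl (-0.41) had separated pools, 2 of 7 against 5.65%. Their summed signal was 3425, 5693 and 5634 against 3270, 3182 and 3294, and without control pool 1 the median was -0.96. Among 11 astroglial genes, Gfap, the intermediate filament of astrocytes, lay above the controls in every pool (0.45 ± 0.13, adjusted p = 0.28 by limma). S100b lay below them in every pool (-0.35 ± 0.11, adjusted p = 0.35 by limma). The shares of all genes were 5.74% upward and 5.65% downward.

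The same contrast by day used 6 other pineal arrays and gave 233 genes that passed (1.95%). The test of whether the night effect differed from that by day passed in none of the 11936 genes by limma, with 1134 at an unadjusted p under 0.05 (9.5%). In the vascular lists the medians had opposite signs: endothelium was at 0.16 by day and -0.36 at night, and the mural list at 0.10 and -0.52. Mean log2 levels of the endothelial list in control pools were 9.37, 9.45 and 9.36 by day and 9.67, 9.88 and 9.83 at night. In cKO pools they were 9.60, 9.58 and 9.34 by day and 9.30, 9.50 and 9.44 at night. In both vascular lists every control pool stood higher at night than by day, while the cKO pools of the 2 times overlapped. The test of the difference had an unadjusted p under 0.05 in 12 of 18 endothelial, 7 of 10 mural and 10 of 19 matrix genes, against 4 of 21 for fibroblasts and 2 of 23 for macrophages. The 3' to 5' ratios, separated at night, overlapped by day. By day Actb was at 1.08 to 1.29 in cKO against 1.08 to 1.24 in control pools, and Gapdh at 0.363 to 0.488 against 0.385 to 0.505. The part of these ratios in the night-minus-day values was not tested. On values as deposited 39 genes passed this test, 33 of them with the lower effect at night.

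Notch3 was the gene of smallest p, at 0.48 by day and -0.67 at night, a difference of -1.15 (adjusted p = 0.068). Igfbp3, a carrier of insulin-like growth factors, differed by -1.07, Abcc9 by -1.12, Moxd1, a monooxygenase family member, by -1.18 (each adjusted p = 0.068) and Itih5 by -0.72 (adjusted p = 0.072). In the other direction were Slfn4, a schlafen gene of myeloid cells (2.21, adjusted p = 0.072), the clock gene Per3 (0.63, adjusted p = 0.11), the platelet genes Gp9 (1.67) and Rgs18 (1.57) and the granzyme gene Gzma (1.23, each adjusted p = 0.21). Per3 was at -0.71 by day, where it passed (adjusted p = 0.0029), and at -0.08 at night. Neutrophil genes stood at a median of -1.37 by day and 0.20 at night, and bone genes at -1.26 and -0.54. The sign of the neutrophil median at night depended on single pools: it was -0.27 without control pool 1, -0.22 without cKO pool 2 and 0.57 without control pool 2. Melatonin genes had a median of 0.02 at both times.

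**Figure D5:**
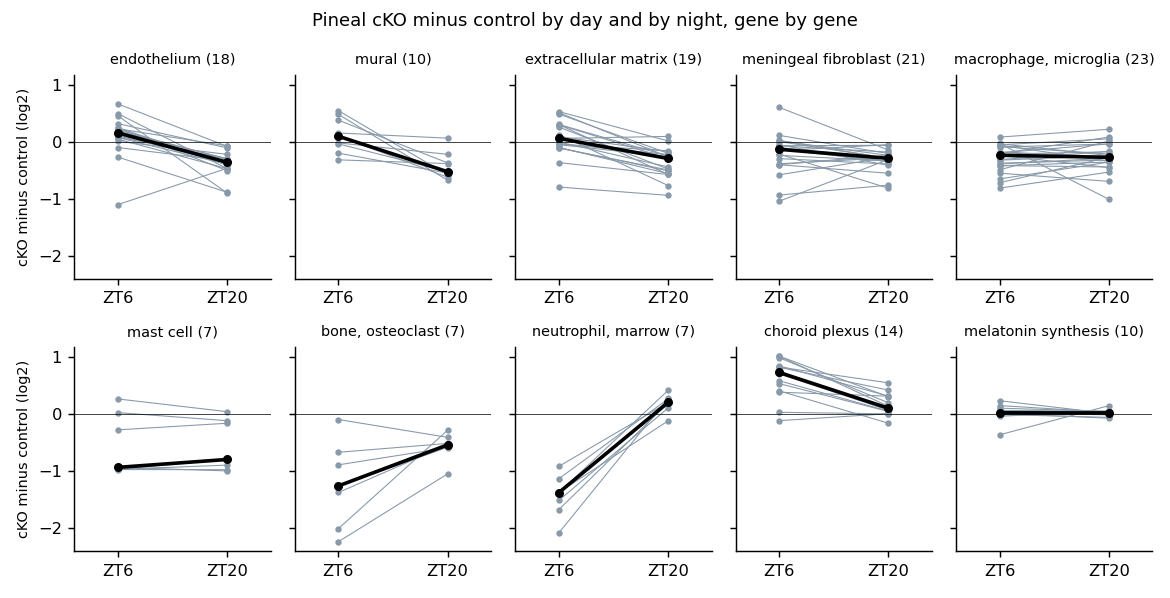
Difference cKO minus control (log2) of each tested gene by day (ZT6) and at night (ZT20) for 10 lists, 1 thin line per gene, with the list median in black. Endothelial, mural and matrix medians pass from 0.06 to 0.16 by day to -0.52 to -0.29 at night, mast cell and macrophage medians are similar at both times, and the melatonin list stays at 0.02.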

How the data were processed

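RNA of 24 pools was measured on Affymetrix Mouse 430 2.0 arrays after isolation with the RNeasy Micro kit and amplification with NuGEN Ovation kits, per the labels' protocols. The deposited values are linear signal intensities of 45101 probe sets, made by the authors with GCOS, which is named in the submitters' processing notes. The version, array scaling and detection calls are not given in the sources used here. Groups and pool numbers were taken from the sample titles, and nothing says that a number is shared between groups.

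The platform annotation gave 1 gene symbol to 34945 probe sets, and these were used. It gave several to 932, and 9160 others and 64 control probe sets are unnamed here. Of them 34741 matched RefSeq identifiers, and 0 symbols changed. The probe set of a gene was that of highest mean over the 24 arrays, with _x_at sets used only where there was no other. The 12 pineal arrays were quantile-normalised, since the arrays shared no scale, and log2(value + 16) entered limma 3.58.1 (R 4.3.3, lmFit with 1 mean per group, eBayes with trend and robust). The pseudocount of 16 understates differences of dim genes. A gene was tested if above the array median on at least 3 of the 12 arrays. Tests were two-sided, with Benjamini-Hochberg adjustment over 11936 genes. The number of arrays limits the precision. The fitting code was tested on simulated data. Scan dates were not used here, and array batches were not examined.

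The genes named were, by rule, Neurod1 and 8 fixed genes, the 10 of smallest p with separated pools in each direction, 5 each way for the difference between the times, and of each list up to 2 of smallest p and up to 2 of highest mean. Clones, predicted and sex-linked genes were passed over in the first of these. Other list members are named for completeness, after their values were seen. The 31 lists held 509 entries, of which 464 were on the array and 45 were not, and 378 distinct genes were tested. The comparison, lists and tests were chosen with earlier results of these data known. Scaling, pseudocount, filter, variance model, probe set choice, pool block and left-out pools were varied as alternatives.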

Additional observations from a re-analysis of the deposited data

Results flagged for a closer look

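In 5 of the 137 genes named by rule, some of them chosen for the small p of this very difference, every cKO pool lay on one side of every control pool at ZT20 and on the opposite side at ZT6. The difference of the effects (night minus day, log2) was -1.15 for Notch3 (-0.67 at night, 0.48 by day), -1.07 for Igfbp3 (-0.63 and 0.43), -1.12 for Abcc9 (-0.58 and 0.54) and -0.72 for Itih5 (-0.50 and 0.22). For Gp9 it was 1.67 (0.75 and -0.92). By limma's test of the difference none of the 5 passed, with adjusted p of 0.068 for Notch3, Igfbp3 and Abcc9, 0.072 for Itih5 and 0.21 for Gp9. Over all 11936 genes, 94 (0.788%) were separated in opposite directions at the 2 times. Over its alternatives this test passed in 0 to 43 genes.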

How the results depend on the processing

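The count of 0 genes at ZT20 held under both other pseudocounts, both other filters, either other variance model, the ZT20 arrays alone and both other choices of probe set. It was 137 on values as deposited (all lower), 2 after median centring (Kcnma1 and Rsl24d1, higher), 5 after scaling to a trimmed mean (Adamts12, Bcl6b, Cd300lg, Lgi2 and Tpsb2, lower) and 2 without cKO pools 2 and 3 (Neurod1 and Gbp2b, lower). Leaving out single pools gave 0 to 29. With values as deposited and eBayes not robust, an alternative chosen after seeing the data, it was 122, and Neurod1 then passed (-3.12, adjusted p = 1.53e-12). Neurod1 also passed without cKO pools 2 and 3 (-6.28) and ran from -4.13 to -1.35 without single pools, never passing. The night-minus-day count of 0 became 39 as deposited, 43 in the added alternative, 4 after median centring and 0 to 2 without single pools, and it could not be fitted on the ZT20 arrays alone. With the pool number as a block, 1 gene passed at ZT20 (Tpsb2, adjusted p = 0.043) and 19 for night minus day. Same-numbered pools deviated together with r = 0.18, 0.14 and 0.06, and pools of unlike number with r from -0.27 to 0.13. Not every pool correlated best with its own number. Whether pools of the same number share more than that number cannot be told from these values. Where counts moved, the cause was not tested. Of 137 named genes, 21 changed sign as deposited, 31 after median centring, 17 after trimmed-mean scaling and 12 without cKO pools 2 and 3. Of 31 list medians, 14, 6, 3 and 8 did. The 3 pools per group and the dim signal of Gad1, Urah and Wfdc21 limit what could be called.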

Other observations

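Among 16 tested genes of interferon response and antigen presentation none passed by limma, and only Tap1, a peptide transporter, had separated pools (-0.23), which is 1 of 16 against 5.65% of all genes. The list median was -0.12, against 0.02 for all genes, and -0.06 without control pool 3. The median was -0.17 by day. After centring on array medians it was 0.01. Psmb9, an immunoproteasome subunit, was at -0.27 ± 0.16 and Cd74, the MHC class II invariant chain, at -0.15 ± 0.08, neither of which passed by limma (adjusted p = 0.73 and 0.70). B cell genes varied, from Ebf1 at -0.50 ± 0.12 to Igll1 at 0.54 ± 0.34, with a median of 0.16 over 8 tested genes that was 0.03 without control pool 1 and 0.30 without cKO pool 3.

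Without cKO pools 2 and 3, Gbp2b, a guanylate-binding protein gene, passed beside Neurod1 (-2.95, adjusted p = 0.037 by limma). Its pools read 111, 101 and 232 in control and 4.14, 144 and 162 in cKO, so only cKO pool 1 was low. The Y-linked gene Uty lay above the controls in every cKO pool (0.67 ± 0.32), while Eif2s3y (0.13) and Kdm5d (0.27) and the X-linked Xist (-0.08) overlapped, and the share of each sex in a pool is not given in the labels. Red cell genes (3 tested) had a median of 0.31, cell cycle genes (12) -0.02 and cell death genes (9) -0.09. Immediate-early and stress genes (13) had 0.07, myelin genes (5) -0.19 and neurons of neighbouring brain (5) 0.04. In each list at most 1 gene had separated pools, against 5.74% of all genes upward and 5.65% downward. Single pools moved several of these medians. The red cell median was 0.11 without control pool 1 and the myelin median -0.12 without cKO pool 1. Without cKO pool 2 the cell death median was -0.17.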
